A study of Mus musculus with 6 samples.

Results

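The genes examined here encode the enzymes that break down the branched-chain amino acids valine, leucine and isoleucine and that handle propanoate. They were chosen by the pathway annotation of the deposited table, as every gene listed under the KEGG terms for valine, leucine and isoleucine degradation or for propanoate metabolism, which gave 65 of 30914 genes. The degradation term held 52 of them and the propanoate term 30, with 17 in both. The pathway was selected with earlier results of the same comparison known, so its fold changes and counts are given as a description and not as independent evidence. Of the 65 genes, 54 reached 0.5 FPKM in at least 3 of the 6 libraries and entered the fit over 13089 genes, and 11 did not.

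Hearts of male wild-type C57BL/6J mice were compared, 3 in each group. The labels give an age of 8 weeks, which is the age at which the authors obtained the mice. All 6 mice received angiotensin II (Ang II), a peptide that raises blood pressure and enlarges the heart, at 1 μg/kg/min from osmotic pumps for 4 weeks. The Ang II + Tec group also received tectochrysin (Tec), a plant flavonoid, at 5 mg/kg during the last 2 weeks. Both groups therefore carry Ang II, no heart without Ang II was analysed here, and each library came from whole-heart tissue, in which a smaller number of cells of a type and less RNA per cell cannot be told apart.

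Branched-chain amino acids are first transaminated to keto acids, which the branched-chain keto acid dehydrogenase complex of the mitochondrial matrix then decarboxylates in the committed step. Acyl-CoA dehydrogenases, hydratases and thiolases carry the products on. Leucine ends as acetyl-CoA and acetoacetate, whereas valine and isoleucine also give propionyl-CoA, which a biotin-dependent carboxylase and a vitamin B12-dependent mutase turn into succinyl-CoA for the citric acid cycle. The heart is known to oxidise these substrates, and lower expression of the pathway is a known feature of failing myocardium.

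The starts of 3 of these genes are shown because Bckdha and Bckdhb encode the alpha and beta subunits of one enzyme and differed in the comparison below, and because Ivd is among the members with the highest log2 fold changes. Each window runs from 250 bases before to 50 bases after the RefSeq gene start on GRCm38.p6, is written 5′ to 3′ on the strand of the gene, and has GC boxes (GGGCGG, on either strand) in capitals. Bckdha lies at chr7:25658712-25659011 on the minus strand, Bckdhb at chr9:83924887-83925186 on the plus strand, where a further RefSeq start was not printed, and Ivd at chr2:118861744-118862043 on the plus strand.
Bckdha: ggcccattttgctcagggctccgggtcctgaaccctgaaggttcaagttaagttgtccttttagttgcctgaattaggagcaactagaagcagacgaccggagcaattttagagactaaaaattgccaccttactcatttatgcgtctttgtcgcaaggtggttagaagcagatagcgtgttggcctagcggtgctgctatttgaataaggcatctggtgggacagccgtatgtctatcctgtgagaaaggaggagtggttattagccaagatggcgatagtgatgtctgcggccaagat
Bckdhb: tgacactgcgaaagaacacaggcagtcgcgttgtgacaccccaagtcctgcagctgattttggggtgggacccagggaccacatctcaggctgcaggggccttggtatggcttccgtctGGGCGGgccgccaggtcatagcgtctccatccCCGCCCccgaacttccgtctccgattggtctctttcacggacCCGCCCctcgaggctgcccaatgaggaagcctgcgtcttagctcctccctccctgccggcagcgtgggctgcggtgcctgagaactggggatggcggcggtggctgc
Ivd: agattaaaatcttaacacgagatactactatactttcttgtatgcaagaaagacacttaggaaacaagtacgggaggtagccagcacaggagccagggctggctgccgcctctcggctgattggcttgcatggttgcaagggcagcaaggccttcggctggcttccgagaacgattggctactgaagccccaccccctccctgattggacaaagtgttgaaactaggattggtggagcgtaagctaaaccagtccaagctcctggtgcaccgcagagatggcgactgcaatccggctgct
The Bckdhb window held 3 GC boxes, and the Bckdha and Ivd windows held 0. Among the 55 members of the pathway with a RefSeq promoter window, 29 (52.7%) had a GC box, beside 38.2% of 27025 genes with a window. The element of the estrogen-related receptors (TCAAGGTCA) was found in 0 of the 55 and in 0.466% of all genes, and a direct repeat of AGGTCA spaced by 1 base, the element of PPAR with RXR, in 0 of the 55 and in 0.0481% of all genes. Of the 9 members whose groups did not overlap (below), 7 had a window and 4 of these had a GC box. A match describes the letters only.

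The comparison of Ang II + Tec with Ang II asked how the pathway stood in hearts treated with Tec. Of the 54 tested members, 37 (68.5%) had a log2 fold change above 0 (higher with Tec), whereas 20% of all 13089 tested genes did. The median log2 fold change of the members was 0.08, beside -0.17 over all tested genes. None of the members passed the limma test at an adjusted p-value under 0.05, where 0.183% of all genes (24) did, and the smallest adjusted p-value of a member was 0.201 (Aox1). At an unadjusted p-value under 0.05, 6 members were higher with Tec (Ivd, Aox1, Bckdha, Suclg2, Aldh2 and Pcca) and 0 were lower, beside 2.09% of all genes higher and 16.5% lower. In 9 members every Ang II + Tec library lay above every Ang II library (those 6 with Ldhb, Acat1 and Acad8), and in 0 members did the groups separate the other way. Over all tested genes these shares were 2.9% and 18.9%.

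**Figure D1:**
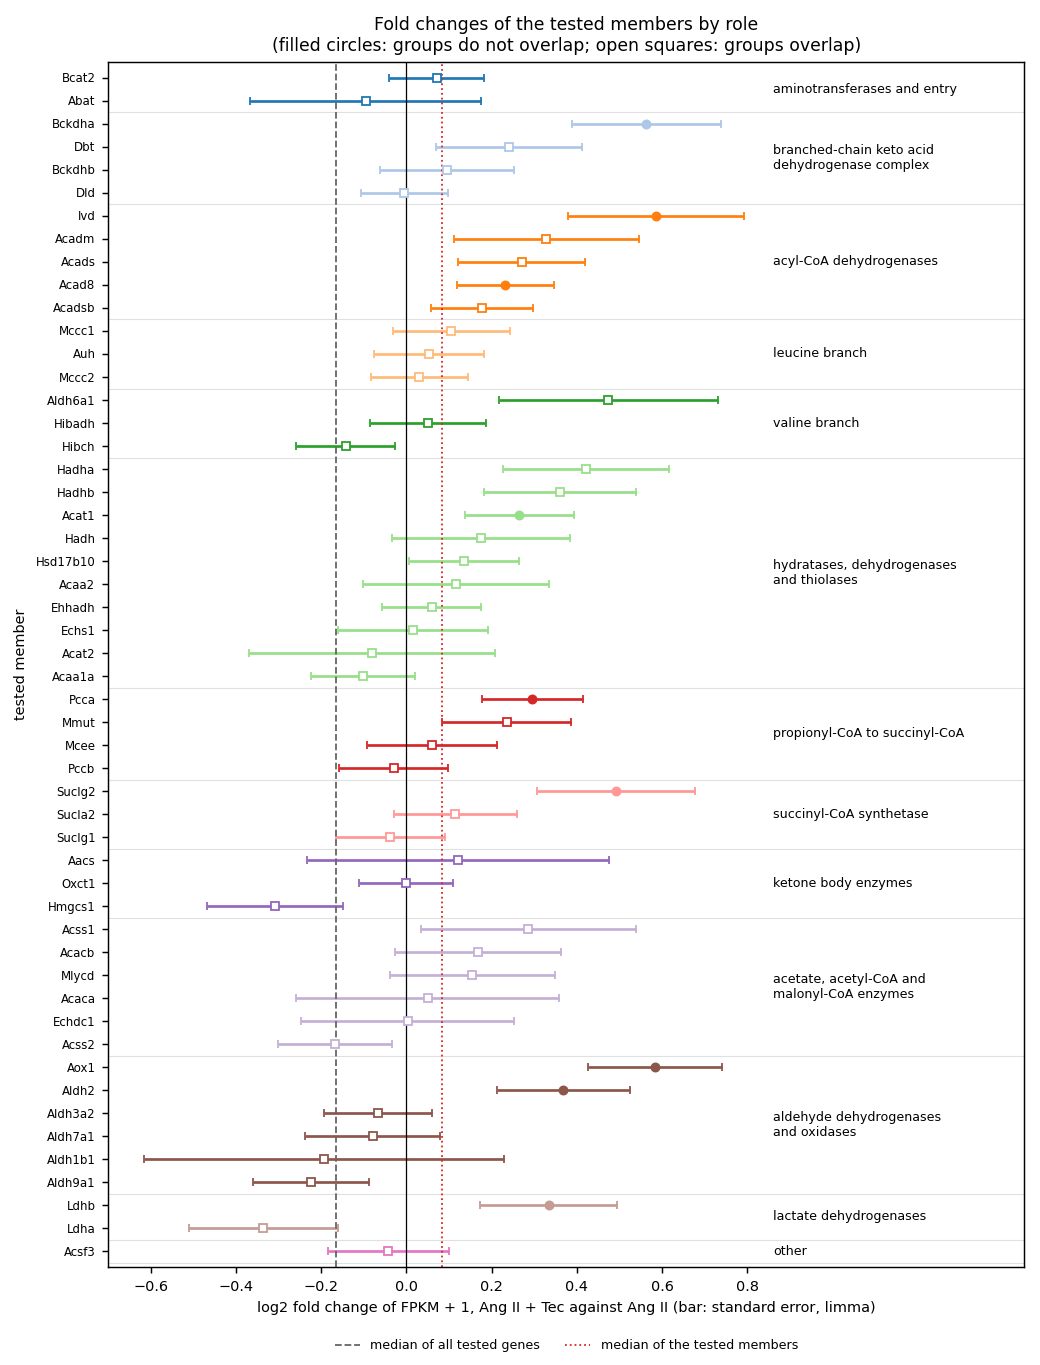
Log2 fold change of FPKM + 1 for 52 of the 54 tested members (x axis, Ang II + Tec against Ang II, with the standard error from limma), grouped by role. The 9 members whose groups did not overlap are filled circles and all lie to the right of 0, and the median of the members (0.08) lies to the right of the median of all tested genes (-0.17).

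The fold changes on this scale depend on how the libraries are scaled. The median over all tested genes was -0.17, and the sums of FPKM ranged from 516699 to 629989 with 40.1% to 52.5% in transcripts of the mitochondrial genome. When each library was divided by the median of its ratios, the median of all genes came to 0.002 and that of the members to 0.29. Of the 54 members, 51 (94.4%) were then higher with Tec, beside 50.4% of all tested genes. The direction of Abat, Acat2, Acss2, Aldh1b1, Dld, Hibch, Oxct1, Pccb and Suclg1 turned under that scaling.

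Ang II replicate 3 stood apart from the other Ang II libraries. Its Pearson correlation over the tested genes was 0.967 with Ang II replicate 1 and 0.947 with Ang II replicate 2, and 0.985, 0.971 and 0.989 with Ang II + Tec replicates 1, 2 and 3. Ang II + Tec replicate 2 was also further from its own group, at 0.974 and 0.980 with replicates 1 and 3, which stood at 0.989 with each other. The members in Ang II replicate 3 were also placed like those in the Tec libraries. With each gene centred on its mean over the 6 libraries, the median of the members on the log2 scale was -0.10, -0.21 and 0.11 in the Ang II libraries and -0.01, 0.11 and 0.06 in the Ang II + Tec libraries. The same medians over all tested genes were 0.15, 0.17 and -0.06 in the Ang II libraries and -0.15, 0.02 and -0.13 in the Ang II + Tec libraries. Ang II replicate 2 was the lowest library in 35 of the 54, beside 9.58% of all tested genes. Without Ang II replicate 3 the groups did not overlap in 32 members (59.3%), beside 60.5% of all tested genes. Of these 32, 28 were higher with Tec, where 6.84% of all genes were higher, and 4 were lower, where 53.7% were.

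**Figure D2:**
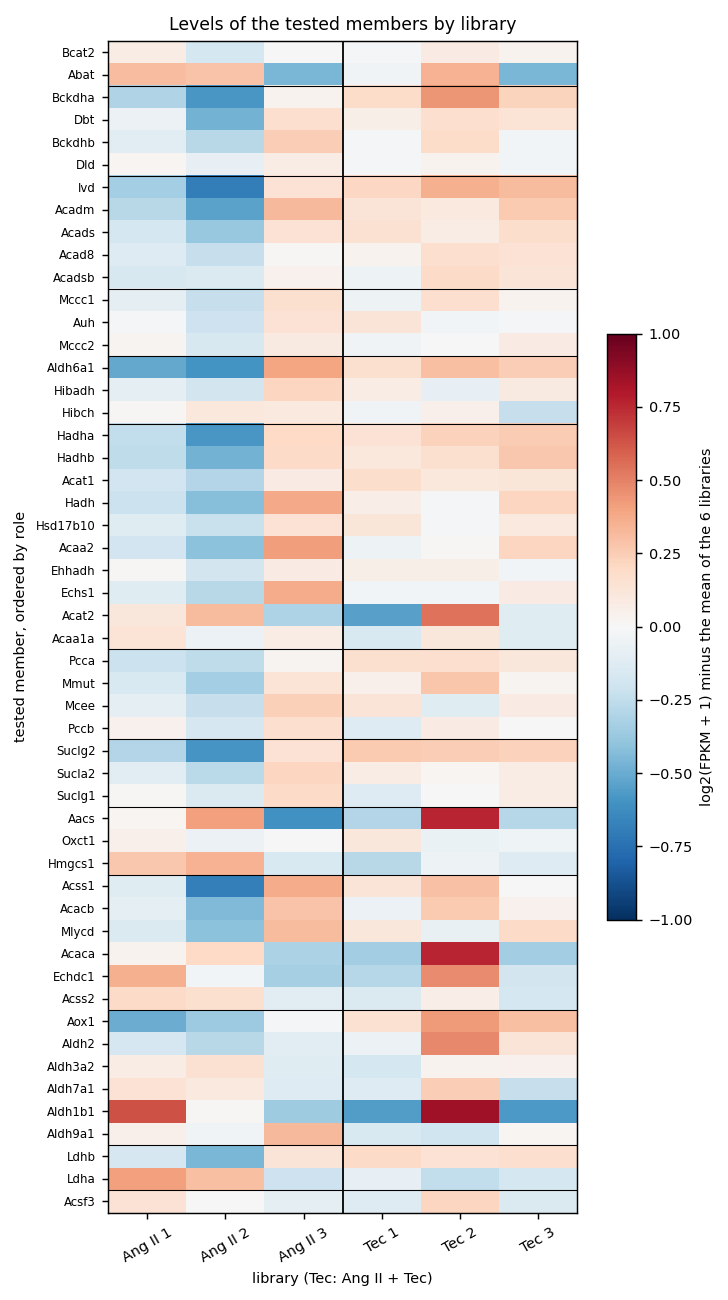
Log2(FPKM + 1) of 52 of the 54 tested members (rows, by role) in the 6 libraries (columns), centred on the mean of the member over the libraries. Ang II replicates 1 and 2 are below their mean in most rows, and Ang II replicate 3 (highest in 21 of 54 members, beside 7.43% of all tested genes) has the colours of the Ang II + Tec libraries.

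Ang II replicate 3 was above both other Ang II libraries in 38 of the 54 members (70.4%), beside 15.3% of all tested genes. The 28 members in which all 3 Ang II + Tec libraries were above Ang II replicates 1 and 2 are 51.9% of those tested. Set against Ang II replicate 3 alone, Ang II + Tec replicates 1 and 3 were both higher in 13 members (24.1%, beside 19.4% of all genes) and both lower in 32 (59.3%, beside 54.5%). Without Ang II replicate 3, 15 members had an adjusted p-value under 0.05 in limma, 13 higher with Tec and 2 lower. Of all genes 2.61% were higher and 26.2% lower at that threshold. The share called in either direction (27.8% of the members) was thus near that of all genes (28.8%). The median of the members was then 0.20, beside -0.24 over all tested genes. Without Ang II replicate 2 the median was 0.0017, beside -0.13 over all tested genes. In that setting 28 of 54 members (51.9%) were higher, beside 22.8% of all genes. Both the calls and the size of the difference thus rest on which Ang II libraries enter.

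Markers of other cell types differed between the libraries too. The atrial light chain Myl7 stood at 419, 332 and 0 FPKM in Ang II hearts and at 0, 1040 and 1.58 FPKM in Ang II + Tec hearts, with the high values in Ang II replicates 1 and 2 and Ang II + Tec replicate 2. The summed FPKM of the 5 atrial markers ranged from 256 to 10253 in Ang II hearts and from 128 to 5056 in Ang II + Tec hearts, most of it from Nppa, which enlarged ventricles also express. The 10 fibroblast markers summed to 1228, 1448 and 444 FPKM in Ang II hearts and to 481, 907 and 578 FPKM in Ang II + Tec hearts. Much of that sum was Gsn (333, 289 and 226 against 307, 606 and 375 FPKM), whereas the collagen Col1a1 was at 82.7, 100.4 and 7.09 against 4.2, 8.06 and 3.83 FPKM and the matricellular gene Postn at 130, 178 and 10.53 against 6.13, 11.3 and 4.84 FPKM, with Ang II replicate 3 near the Tec libraries. The 10 leukocyte and macrophage markers summed to 255 to 508 against 174 to 191 FPKM. The 7 adipocyte markers summed to 153 FPKM in Ang II + Tec replicate 2 and to 14.1 to 55.3 FPKM in the other libraries, and the brown adipocyte gene Ucp1 stood at 18.3 FPKM in that library. The 10 cardiomyocyte markers summed to 13719 to 17510 against 15280 to 16993 FPKM. The 10 endothelial markers summed to 201 to 223 against 178 to 208 FPKM. Smooth muscle and pericyte markers summed to 230 to 464 against 189 to 350 FPKM, and fast skeletal muscle markers to 139 to 316 against 109 to 642.5 FPKM. Of the last set, Atp2a1 (0.07 to 0.1 against 6.3 to 7.51 FPKM) and Mylpf (0.22 to 0.58 against 3.44 to 4.55 FPKM) were apart by group, and the others listed overlapped. The part of these markers in the values of the pathway was not tested.

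The pathway starts with the aminotransferases. Bcat2, the mitochondrial branched-chain aminotransferase, stood at 17.9, 14.9 and 16.9 FPKM in Ang II hearts and 16.8, 17.97 and 17.4 FPKM in Ang II + Tec hearts. Its groups overlapped (log2 fold change 0.07, SE 0.11). Bcat1, the cytosolic form, stayed below the filter at 0.2 to 0.46 FPKM. Abat, the aminotransferase of 4-aminobutyrate, was at 2.83, 2.78 and 1.26 against 2.02, 2.93 and 1.26 FPKM and had its lowest values in Ang II replicate 3 and Ang II + Tec replicate 3 (log2 fold change -0.10, SE 0.27).

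Bckdha, the alpha subunit of the decarboxylase of the keto acid dehydrogenase complex (chromosome 7, 25629946 to 25658981, minus strand), stood at 52.5, 43.02 and 66.6 FPKM in Ang II hearts and 73.7, 88.3 and 76.02 FPKM in Ang II + Tec hearts. All 3 Ang II + Tec libraries were above all 3 Ang II libraries (log2 fold change 0.56, SE 0.17, adjusted p-value 0.221 in limma). Bckdhb, the beta subunit of the same decarboxylase (chromosome 9, 83925145 to 84124240, plus strand), was at 16.3, 14.5 and 21.2 against 17.5, 20.3 and 17.4 FPKM, and Ang II replicate 3 was its highest library (log2 fold change 0.09, SE 0.16). Dbt, the transacylase core, was at 8.27, 5.96 and 9.83 against 9.02, 9.85 and 9.59 FPKM (log2 fold change 0.24, SE 0.17), with Ang II replicate 3 inside the range of the Tec libraries. Dld, the dehydrogenase subunit shared with other complexes, was at 92.6, 86.3 and 96.2 against 90.8, 93.7 and 89.6 FPKM (log2 fold change -0.0046, SE 0.10). The complex thus had its alpha subunit apart by group while its other subunits overlapped.

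A ratio of 2 genes within a library does not depend on how the library was scaled. The ratio of Bckdha to Bckdhb in FPKM was 3.22, 2.98 and 3.15 in Ang II hearts and 4.21, 4.36 and 4.37 in Ang II + Tec hearts. Ang II replicate 3 lay with the other Ang II libraries here, and the group means were 3.11 ± 0.125 and 4.32 ± 0.0913 (SD, n = 3 each). Bckdha to Dbt was also apart, at 6.35, 7.22 and 6.78 against 8.17, 8.97 and 7.93, whereas Bckdhb to Dbt overlapped (1.97, 2.43 and 2.15 against 1.94, 2.06 and 1.81). The 9 ratios examined between enzyme subunits or isoforms were chosen after the values had been seen and are given without a test, and with 3 mice a group an exact permutation test cannot go below 0.1.

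**Figure D3:**
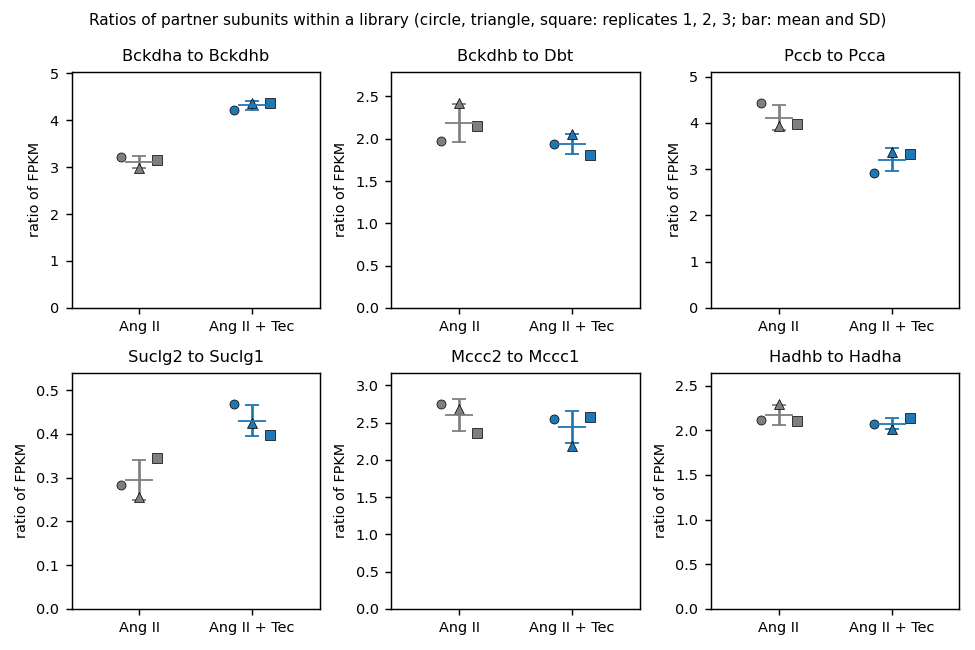
Ratio of the FPKM of 2 subunits or isoforms within each library, for 6 of the 9 pairs examined, with a point per library and the mean and SD of each group. For Bckdha to Bckdhb the Ang II libraries lie between 2.98 and 3.22 and the Ang II + Tec libraries between 4.21 and 4.37, and the ratio of Hadhb to Hadha overlaps between the groups.

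The 5 acyl-CoA dehydrogenases were each higher on average with Tec, with a median log2 fold change of 0.27. Ivd, the isovaleryl-CoA dehydrogenase of the leucine branch (chromosome 2, 118861954 to 118882909, plus strand), stood at 31.6, 24.5 and 44.6 FPKM in Ang II hearts and 46.4, 51.8 and 50.1 FPKM in Ang II + Tec hearts. The groups did not overlap, with Ang II replicate 3 next to the Tec libraries (log2 fold change 0.59, SE 0.21, adjusted p-value 0.232 in limma). Acad8, the isobutyryl-CoA dehydrogenase of the valine branch, was at 8.85, 8.21 and 9.84 against 10.03, 11.1 and 10.9 FPKM and also did not overlap (log2 fold change 0.23, SE 0.11). Acadsb, which acts on the isoleucine product, was at 12.9, 13.1 and 14.98 against 13.99, 16.7 and 16 FPKM (log2 fold change 0.18, SE 0.12). Acadm and Acads, the medium-chain and short-chain enzymes of fatty acid oxidation, were at 152, 127 and 233 against 203, 199 and 223 FPKM and at 56.03, 48.6 and 70.1 against 70.7, 66.7 and 71.8 FPKM. Both had Ang II replicate 3 within or above the range of the Tec libraries.

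**Figure D4:**
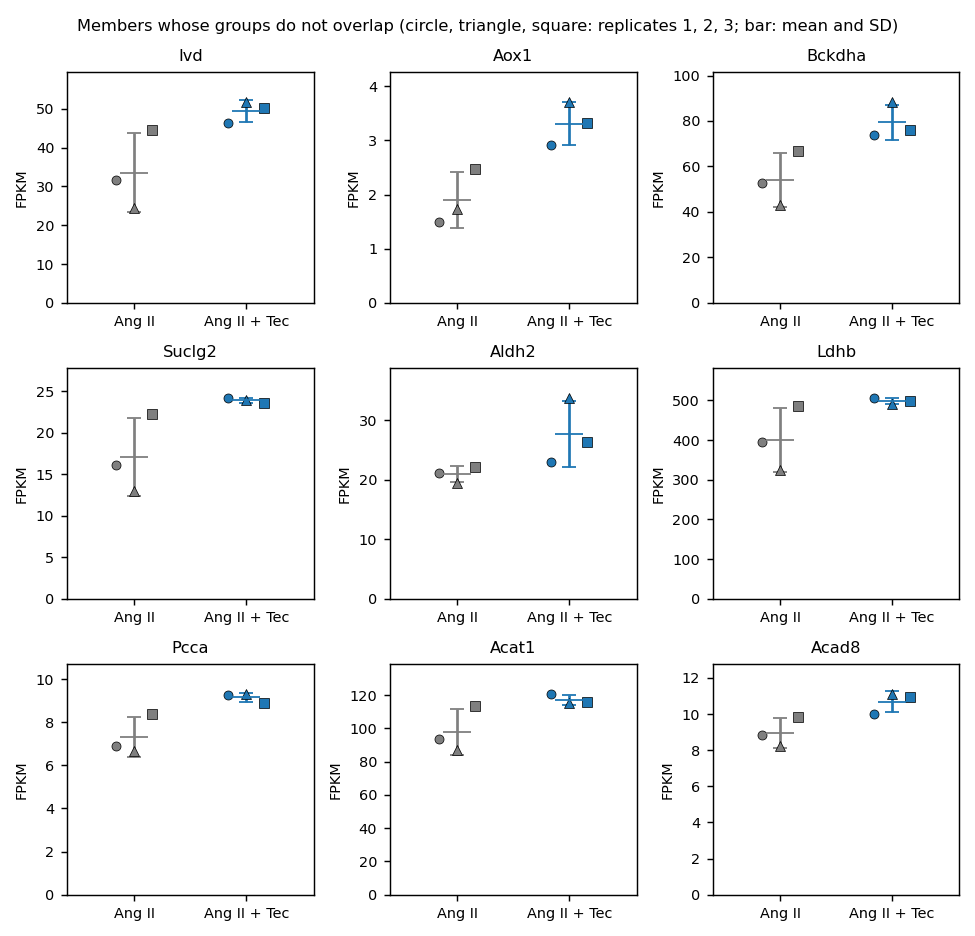
FPKM of the 9 members whose groups did not overlap, 1 panel each, with a point per library and the mean and SD of each group. In each panel the lowest Ang II + Tec library is above the highest Ang II library, by little in Ldhb (491 against 485 FPKM) and by more in Bckdha (73.7 against 66.6 FPKM).

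The remaining leucine enzymes had median log2 fold change 0.06 and overlapping groups. Mccc1 and Mccc2, the subunits of methylcrotonyl-CoA carboxylase, were at 5.58, 4.96 and 6.8 against 5.74, 6.87 and 6.18 FPKM and at 15.4, 13.3 and 16.03 against 14.6, 15.1 and 15.95 FPKM. Auh, the methylglutaconyl-CoA hydratase, was at 5.39, 4.62 and 6.18 against 6.09, 5.36 and 5.38 FPKM (log2 fold change 0.05, SE 0.13). None of these separated the groups.

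In the valine branch Aldh6a1, the methylmalonate semialdehyde dehydrogenase, was at 18.1, 17 and 34.9 FPKM in Ang II hearts and 29.4, 32.6 and 31.3 FPKM in Ang II + Tec hearts. Ang II replicate 3 was its highest library of all 6, and Ang II replicates 1 and 2 were the lowest (log2 fold change 0.47, SE 0.26, adjusted p-value 0.330 in limma). Leaving out that highest library gave it the smallest adjusted p-value of any member in limma (0.0041, log2 fold change 0.79). In that setting 28.8% of all tested genes passed. Hibadh was at 20.3, 19.1 and 25.5 against 23.1, 20.6 and 23.3 FPKM and Hibch at 10.97, 11.8 and 11.7 against 10.6, 11.3 and 9.13 FPKM, the dehydrogenase and the hydrolase of the hydroxyisobutyrate steps, and both overlapped.

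Pcca, the biotin-carrying alpha subunit of propionyl-CoA carboxylase, stood at 6.89, 6.68 and 8.37 FPKM in Ang II hearts and 9.26, 9.31 and 8.91 FPKM in Ang II + Tec hearts. The groups did not overlap (log2 fold change 0.29, SE 0.12, adjusted p-value 0.256 in limma). Pccb, its beta subunit, was at 30.6, 26.2 and 33.4 against 26.98, 31.3 and 29.7 FPKM and overlapped. The ratio of Pccb to Pcca was 4.44, 3.93 and 3.99 in Ang II hearts and 2.91, 3.37 and 3.34 in Ang II + Tec hearts, so the group ranges were apart. Mcee, the epimerase, was at 35.7, 32.5 and 45.5 against 41.9, 35.3 and 40.6 FPKM, and Mmut, the mutase that makes succinyl-CoA, at 14.7, 12.8 and 18.2 against 17.03, 20.1 and 16.8 FPKM (log2 fold change 0.24, SE 0.15).

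Suclg2, the GTP-forming beta subunit of succinyl-CoA synthetase, was at 16.1, 12.99 and 22.3 FPKM in Ang II hearts and 24.2, 23.97 and 23.6 FPKM in Ang II + Tec hearts. All 3 Tec libraries were above the Ang II libraries (log2 fold change 0.49, SE 0.18). Suclg1, the alpha subunit, and Sucla2, the ATP-forming beta subunit, were at 56.9, 50.98 and 64.7 against 51.6, 56.5 and 59.4 FPKM and at 102, 91.4 and 128 against 117, 112 and 117 FPKM, and both overlapped. The ratio of Suclg2 to Suclg1 was 0.284, 0.255 and 0.344 against 0.469, 0.424 and 0.398, and that of Sucla2 to Suclg2 was 6.34, 7.03 and 5.77 against 4.82, 4.68 and 4.94. The groups were apart in both ratios, which share Suclg2. In each, Ang II replicate 3 was the Ang II library nearest to the Tec libraries, unlike in the ratio of Bckdha to Bckdhb.

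The hydratases, hydroxyacyl-CoA dehydrogenases and thiolases serve fatty acid oxidation as well, and 8 of the 10 tested were higher on average with Tec (median log2 fold change 0.13). Acat1, the mitochondrial acetoacetyl-CoA thiolase that closes isoleucine and ketone body breakdown, was at 93.5, 86.96 and 113 FPKM in Ang II hearts and 121, 115 and 116 FPKM in Ang II + Tec hearts. Its groups did not overlap (log2 fold change 0.27, SE 0.13). Hadha and Hadhb, the subunits of the trifunctional protein, were at 56.01, 44.2 and 76.9 against 73.8, 78.5 and 79.99 FPKM and at 118, 102 and 162 against 153, 158 and 171 FPKM. For both, Ang II replicate 3 lay within the range of the Tec libraries. The Hadhb pseudogene Hadhb-ps was listed at 84.2 to 151 FPKM, so the value of Hadhb may share reads with this copy and is uncertain. Acaa2, a thiolase and one of the most abundant members, was highest in Ang II replicate 3 (294, 253 and 449 against 324, 338 and 389 FPKM).

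Of the 4 ketone body enzymes 1 was higher on average with Tec, and 3 were under the scaling by the median of ratios. The shares of all tested genes were 20% and 50.4%. Oxct1, which activates acetoacetate for use as fuel, was at 234, 217 and 226 FPKM in Ang II hearts and 244, 215 and 218 FPKM in Ang II + Tec hearts, with overlapping groups (log2 fold change -0.00077, SE 0.11). Hmgcs1, the cytosolic synthase of the mevalonate pathway, was at 7.03, 7.47 and 4.99 against 4.49, 5.42 and 5.09 FPKM and overlapped between the groups (log2 fold change -0.31, SE 0.16). Aacs, which activates acetoacetate in the cytosol, was at 1.31, 2.03 and 0.5 against 0.86, 2.88 and 0.87 FPKM.

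The lactate dehydrogenases enter through the propanoate term. Ldhb, the heart form and the most abundant member, was at 395, 324 and 485 FPKM in Ang II hearts and 506, 491 and 499 FPKM in Ang II + Tec hearts. Its groups were apart by a narrow margin (log2 fold change 0.33, SE 0.16). Ldha, the muscle form, was at 226, 208 and 147 against 160.2, 142 and 150.1 FPKM, with Ang II replicates 1 and 2 above the other 4 libraries, and had one of the lowest fold changes of the members (log2 fold change -0.34, SE 0.18). The ratio of Ldhb to Ldha was 1.75, 1.55 and 3.31 against 3.16, 3.45 and 3.32. Unlike the ratios that separated the groups, this one placed Ang II replicate 3 among the Tec libraries. So did Mccc2 to Mccc1 (2.75, 2.68 and 2.36 against 2.54, 2.19 and 2.58). In Hadhb to Hadha (2.11, 2.30 and 2.10 against 2.07, 2.02 and 2.14) Ang II replicates 1 and 3 both lay there.

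Among the aldehyde dehydrogenases and oxidases, 2 of 6 were higher on average with Tec, beside 20% of all tested genes. When each library was divided by the median of its ratios, 5 of 6 were, beside 50.4%. Aox1, an aldehyde oxidase at low level, was at 1.49, 1.73 and 2.48 FPKM in Ang II hearts and 2.91, 3.71 and 3.32 FPKM in Ang II + Tec hearts. Its groups did not overlap (log2 fold change 0.58, SE 0.16). Aldh2, the mitochondrial aldehyde dehydrogenase, was at 21.2, 19.5 and 22.1 FPKM in Ang II hearts and 22.9, 33.7 and 26.2 FPKM in Ang II + Tec hearts, with Ang II + Tec replicate 2 above the rest (log2 fold change 0.37, SE 0.16). Aldh9a1 was at 8.49, 7.94 and 10.49 against 7.24, 7 and 8.28 FPKM (log2 fold change -0.22, SE 0.14), and Aldh1b1 at 11.2, 6.87 and 5.1 against 4.3, 13.04 and 4.24 FPKM with its highest value again in Ang II + Tec replicate 2.

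The acetate, acetyl-CoA and malonyl-CoA enzymes overlapped between the groups in each of the 6 tested. Acss1, the mitochondrial acetyl-CoA synthetase, was at 31.2, 20.8 and 44.3 against 37.3, 41.7 and 34.2 FPKM, and Acss2, its nucleocytosolic counterpart, at 4.03, 3.93 and 3.1 against 2.98, 3.62 and 2.9 FPKM. Acaca, the acetyl-CoA carboxylase of fat synthesis, was at 0.76, 0.97 and 0.38 against 0.35, 1.91 and 0.35 FPKM, and Acacb, the carboxylase whose malonyl-CoA restrains fat oxidation, at 14.3, 11.1 and 18.9 against 14.7, 18.6 and 15.9 FPKM. Acaca, Aacs, Aldh1b1, Echdc1 (3.73, 2.62 and 1.94 against 2.03, 4.14 and 2.25 FPKM) and Acat2 (2.41, 2.92 and 1.54 against 1.16, 3.59 and 1.89 FPKM) all had their highest value in Ang II + Tec replicate 2, the library with the most adipocyte transcripts. That library was the highest in 20 of the 54 members, among them Bckdha, Ivd and Aldh2, beside 17.9% of all tested genes. The part of adipocytes in these values was not tested.

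Of the 34 members with a mean of at least 10 FPKM, 27 (79.4%) were higher with Tec, and of the 20 tested members under 10 FPKM, 10 (50%) were. Over all tested genes these shares were 22.7% and 19.2%. Under the median of ratios 33 of the 34 and 18 of the 20 members were higher, beside 54.9% and 49% of all tested genes, so the contrast by abundance was small under that scaling. This split was set after the values had been seen. Log2(FPKM + 1) understates the change of genes at low level, such as Aox1, whose ratio of group means was 1.74. The 11 members below the filter were Bcat1, Acss3, Acaa1b, Aox3, Lao1, Ldhal6b, Hmgcll1, Il4i1, Aox2, Aox4 and Agxt2. Their highest single value was 0.74 FPKM (Acss3 in Ang II + Tec replicate 2), and Aox4 and Agxt2 were listed at 0 in all 6 libraries.

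Of 16 related genes outside the annotation, all tested, 0 passed after adjustment, and before it 1 was higher and 1 lower with a p-value under 0.05. Over all tested genes 0.183% passed after adjustment, and before it 2.09% were higher and 16.5% lower. Klf15, a transcription factor known to control branched-chain amino acid breakdown, was at 17.3, 14.9 and 25.4 FPKM in Ang II hearts and 23.2, 30.1 and 31.4 FPKM in Ang II + Tec hearts. Ang II replicate 3 overlapped the Tec libraries (log2 fold change 0.55, SE 0.21). Esrra, the estrogen-related receptor alpha of mitochondrial genes, was at 34.2, 28.4 and 31.6 FPKM in Ang II hearts and 23.3, 26.4 and 25.2 FPKM in Ang II + Tec hearts and did not overlap (log2 fold change -0.32, SE 0.12). That log2 fold change was -0.09 when each library was divided by the median of its ratios. The groups were also apart, without an unadjusted p-value under 0.05, in Bckdk and in the cobalamin genes Mmachc and Mmadhc, which were lower with Tec, and in Mmab, which was higher (5.77, 4.92 and 6.36 against 6.87, 7.66 and 6.85 FPKM). Of all tested genes, 18.9% were apart and lower with Tec, and 2.9% were apart and higher. Bckdk, the kinase that switches the keto acid dehydrogenase complex off, was at 18.8, 17.7 and 19.8 against 16.1, 17.5 and 16.9 FPKM, and Ppm1k, the phosphatase that switches it on, at 6.99, 6.35 and 9.79 against 6.37, 7.26 and 6.98 FPKM. Their log2 fold changes of -0.15 and -0.13 turned to 0.08 and 0.08 when each library was divided by the median of its ratios, and those of Mmachc (-0.17) and Mmadhc (-0.19) to 0.05 and 0.04.

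Of the 54 tested members, 24 overlap another gene of the table on the genome, and for 11 of these the other gene had a mean of at least 0.5 FPKM. Bckdha overlaps B3gnt8 on the opposite strand, which was at 1.57 to 2.19 FPKM, and Pcca overlaps Ggact, at 1.38 to 1.8 FPKM. The sources used here do not say whether strand was kept, so reads of such pairs cannot be told apart.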

How the data were processed

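Poly(A) RNA from 6 hearts, 3 for each treatment (Ang II, Ang II + Tec), was sequenced as paired ends. The authors trimmed reads with Cutadapt, and the submitters' processing notes name HISAT2 2.0, StringTie 1.3.0, Bowtie 0.12.2 and build mm8 without a role. The deposited values are FPKM per gene, used as deposited. Coordinates equal those of GENCODE M21 on GRCm38 for 90.52% of 30832 genes and 57 of 65 members, so they were read as GRCm38. FPKM give no depth, so no counting interval is given. A label names 1 heart for each library, and p-values measure the spread between these hearts.

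Members were found by the KEGG identifiers 00280 and 00640. Genes with at least 0.5 FPKM in at least 3 of 6 libraries were tested on log2(FPKM + 1) with limma 3.58.1 in R 4.3.3 (lmFit, eBayes with trend, two-sided, no covariate) and Benjamini-Hochberg adjustment over 13089 genes. Counts read beside the share of all tested genes are descriptions. Figures were drawn with matplotlib 3.10.9. The fit was tested on data simulated for this comparison over 13089 genes, where 200 genes were given a log2 change of 2, and it recovered 195 with 12 false calls. Changes as small as those of the members were not simulated.

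The members, roles, lists and alternatives were chosen with earlier results of these data known. The genes named are the tested members of the core branches, Bcat1, Bcat2, Abat, Acat1 and Oxct1, the 5 highest and 5 lowest fold changes, the 5 most abundant members, and related genes Bckdk, Ppm1k, Klf15 and those with an unadjusted p-value under 0.05. Outside that rule, and chosen after their values were seen, are the other members and related genes named, the 9 subunit ratios, the counts of library order, the split at 10 FPKM and the 3 promoters. GC boxes are shown in the promoters because the other planned motifs had no match. Alternatives changed the pseudocount, filter, scaling, block, variance estimate, library weights and libraries. A few members enter the counts but are not reported here by name.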

Additional observations from a re-analysis of the deposited data

How the results depend on the processing

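The number of members at an adjusted p-value under 0.05 was 0 under the pseudocounts, filters, scalings, variance estimates and replicate block. It was 29 with library weights in limma (53.7% of the members, beside 59.3% of all tested genes). With those weights 31 had an unadjusted p-value under 0.05 (57.4%, beside 65% of all genes), and 11 did with quantile scaling (20.4%, beside 16.2%). The default estimate of the weights did not converge, and the gene-by-gene estimate was put in its place after that result had been seen. It gave the smallest weight, 0.1907, to Ang II replicate 3. The median of the members was 0.29 with the median of ratios and 0.30 with quantile scaling. The 9 members without overlap were counted on the FPKM as deposited. The pseudocounts, variance estimates, replicate block and library weights could therefore not change that number, and it was also 9 under the other filters. It was not counted under the other scalings.

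When each library was left out in turn, members at an adjusted p-value under 0.05 in limma numbered 0 to 15. Those at an unadjusted p-value under 0.05 numbered 1 to 25, and those without overlap 10 to 32. Those higher with Tec numbered 28 to 44 (51.9% to 81.5%, beside 15% to 24.9% of all tested genes), with medians of 0.0017 to 0.20. The 15 (27.8%), the 25 (46.3%) and the 32 (59.3%) came without Ang II replicate 3, where the shares of all tested genes were 28.8%, 43.7% and 60.5%. Without Ang II + Tec replicate 2, 17 members did not overlap (31.5%, beside 47.9% of all genes) and 1 had an unadjusted p-value under 0.05 (1.85%, beside 17.7%). The latter number was 2 without Ang II replicate 1 or 2 or without Ang II + Tec replicate 3, beside 7.4%, 8.96% and 9.1% of all genes. Leaving out both Ang II replicate 3 and Ang II + Tec replicate 2 was added after the values had been seen, and picks libraries by their values. It gave 23 members at an adjusted p-value under 0.05 (42.6%, beside 45.9% of all genes), 30 at an unadjusted one (55.6%, beside 56.9%) and 43 without overlap (79.6%, beside 79.9%).

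The log2 fold changes that turned sign were, with the pseudocount of 0.1, Acaca -0.039, Echdc1 -0.00060. With the median of ratios they were Abat 0.067, Acat2 0.075, Acss2 0.015, Aldh1b1 0.0076, Bckdk 0.077, Dld 0.23, Hibch 0.072, Mmachc 0.049, Mmadhc 0.039, Oxct1 0.23, Pccb 0.20, Ppm1k 0.076, Suclg1 0.19. With quantile scaling they were Abat 0.092, Acat2 0.10, Acss2 0.031, Aldh1b1 0.030, Bckdk 0.10, Dld 0.23, Hibch 0.071, Mmachc 0.075, Mmadhc 0.044, Oxct1 0.13, Pccb 0.23, Ppm1k 0.088, Suclg1 0.19. Without the mitochondrial genome they were Dld 0.028, Oxct1 0.032, Pccb 0.0022, with library weights Aacs -0.25, Acaca -0.30, Bcat2 -0.0085, Echdc1 -0.44, Suclg1 0.0069, and without both libraries Aacs -0.50, Acaca -0.46, Dld 0.012, Echdc1 -0.40, Oxct1 0.035, Ppm1k 0.0011, Suclg1 0.039. With libraries left out in turn the ranges of those that turned were Aacs -0.23 to 0.36, Abat -0.35 to 0.11, Acaa2 -0.058 to 0.36, Acaca -0.32 to 0.23, Acacb -0.010 to 0.35, Acat2 -0.37 to 0.17, Aldh1b1 -0.66 to 0.076, Auh -0.037 to 0.14, Bckdhb -0.019 to 0.24, Dld -0.047 to 0.030, Echdc1 -0.23 to 0.18, Hibadh -0.030 to 0.17, Mccc2 -0.044 to 0.081, Mcee -0.040 to 0.20, Oxct1 -0.057 to 0.032, Pccb -0.12 to 0.047, Ppm1k -0.24 to 0.037, Suclg1 -0.12 to 0.049. The cause was not tested. Of 898 values of the 50 genes, 759 kept their direction and their side of the threshold. A further 61 kept their direction and newly passed it, and 78 turned. The filters, replicate block and variance estimates leave each log2 fold change as it is, so the values under these could not turn.

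Replicate numbers were not used to pair the mice in the main fit. Correlations of deviations from the group means were -0.039, 0.429 and 0.379 for same-numbered libraries and -0.435 to 0.226 for the others. Deviations from a mean of 3 depend on each other, so these values cannot decide whether same-numbered mice were paired. With the replicate block, 0 members had an adjusted and 5 an unadjusted p-value under 0.05 (9.26%, beside 25.3% of all genes). FPKM without read totals limit what can be said of Aox1 and other members at low level.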
